A study of Homo sapiens with 9 samples.

Results

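The transcripts described here are the non-coding host genes of small nucleolar RNAs (snoRNAs) measured on bead arrays in HEK293T cells, which derive from human embryonic kidney. The members are 10 genes, GAS5, SNHG1, SNHG3, SNHG5, SNHG6, SNHG7, SNHG8, SNHG12, SNHG15 and ZFAS1, taken as every probe whose gene symbol in the array's gene table is one of these names. They have 15 of the 47310 probes. Of these, 13 probes of 9 genes were detected well enough to be tested, out of 20914 tested probes for 11830 genes. A tested probe had a detection p-value under 0.05, against the negative controls of its own array, on at least 3 arrays. The cells carried the pRK5 vector coding for WT-BPIFB4, the same vector coding for LAV-BPIFB4, a longevity-associated variant, or an empty plasmid. All 3 groups received the plasmid with a lipid reagent and were serum-starved for 18 hours, beginning 24 hours after transfection, so the starvation is shared by the controls. Each group has 3 arrays. The labels call them triplicates without saying whether these were separate cultures, so the p-values here reflect only the spread among these arrays, which may be technical.

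A snoRNA host gene is transcribed into a long RNA whose introns contain the snoRNAs. Splicing releases the introns, and the snoRNA is trimmed out of its intron, while the spliced exons remain as a transcript that often codes for no protein. Box C/D snoRNAs guide ribose methylation of other RNAs, mainly ribosomal RNA, and box H/ACA snoRNAs guide the conversion of uridine to pseudouridine. Many host transcripts begin with a terminal oligopyrimidine tract, a run of C and T at the first base that is typical of ribosomal protein genes. Many of them are also degraded by nonsense-mediated decay, the pathway that removes RNAs with a premature stop. The level of the spliced host and the level of its snoRNAs can therefore move apart, and the comparison below sets each host beside its snoRNAs.

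The start sites are shown because the hosts that rose and those that did not can then be set beside this shared feature. Start sequences from RefSeq (GRCh38.p14) are shown for 8 of the 10 hosts, and SNHG6 and SNHG15 are named only. The counts over the 8 hosts leave out SNHG6 and SNHG15, although both rose with LAV-BPIFB4. Each line gives the strand of the gene, 40 bases before the annotated first base and 30 bases from it on. Capitals mark the unbroken run of C and T that covers the annotated first base, and a line without capitals has no such run.
GAS5 (chr1:173869016-173869085, minus strand): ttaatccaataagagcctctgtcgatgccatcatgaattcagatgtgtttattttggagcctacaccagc
SNHG1 (chr11:62855856-62855925, minus strand): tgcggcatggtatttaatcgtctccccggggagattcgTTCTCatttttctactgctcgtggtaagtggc
SNHG3 (chr1:28505903-28505972, plus strand): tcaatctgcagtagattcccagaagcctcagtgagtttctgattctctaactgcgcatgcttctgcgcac
SNHG5 (chr6:85678704-85678773, minus strand): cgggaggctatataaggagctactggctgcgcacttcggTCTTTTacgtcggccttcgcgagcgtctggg
SNHG7 (chr9:136728155-136728224, minus strand): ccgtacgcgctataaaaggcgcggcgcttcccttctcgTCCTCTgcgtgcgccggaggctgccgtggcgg
SNHG8 (chr4:118278722-118278791, plus strand): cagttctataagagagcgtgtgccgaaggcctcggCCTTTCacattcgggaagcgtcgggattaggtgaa
SNHG12 (chr1:28581844-28581913, minus strand): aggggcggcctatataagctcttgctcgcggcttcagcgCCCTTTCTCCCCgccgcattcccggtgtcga
ZFAS1 (chr20:49278602-49278671, plus strand): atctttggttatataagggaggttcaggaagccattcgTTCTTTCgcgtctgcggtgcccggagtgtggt

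A run of at least 5 C or T letters over the first base was present in 6 of the 8 hosts, with a length of 5 in SNHG1, 6 in SNHG5, SNHG7 and SNHG8, 7 in ZFAS1 and 12 in SNHG12. The same was true of 3372 of 35116 start sequences in the table, or 9.6%. The letters TATAA, searched on the strand of the gene from 40 to 20 bases before the start, were present in 5 of the 8 hosts, against 1324 start sequences or 3.77%. SNHG5, SNHG7, SNHG8, SNHG12 and ZFAS1 held both, against 96 start sequences or 0.273%. GAS5 and SNHG3 held neither at their annotated start, which says only that these letters are not in these windows. The runs and the TATAA letters do not overlap, and they are a description of the sequence. The annotated starts of SNHG12 and ZFAS1 lie inside the longer span that the RefSeq gene table gives, so the gene's first base differs between these sources.

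The median signal ranged from 93.1 to 139, and 18940 to 20658 probes were detected per array. Arrays of a group correlated at 0.976 to 0.987 across probes. On the first principal component, with 31.8% of the variance, the empty vector arrays lay from -32.1 to -29.8, the LAV-BPIFB4 arrays from 19.7 to 25.2, and WT-BPIFB4 replicates 1, 2 and 3 at -12.3, 9.67 and 29.3. WT-BPIFB4 replicate 1 thus lay nearest to the controls. All 9 arrays sit on 1 chip and each group occupies neighbouring places, so group and place cannot be told apart. The BPIFB4 probe was detected on 0 of 9 arrays, with detection p-values of 0.474 to 0.896, so it does not check the labels. Whether that probe covers the transfected sequence was not tested. Of 8 markers of HEK293 cells on the array, 6 were detected (EYA1, KRT8, KRT18, NEFL, NEFM and VIM), and LHX1 and PAX2 were not. Of 5 endothelial markers none was.

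With WT-BPIFB4, 3 of the 13 host probes rose, for the 2 genes SNHG15 and ZFAS1. With LAV-BPIFB4, 5 rose, for the 4 genes SNHG15, ZFAS1, SNHG6 and SNHG5. No host probe fell in either comparison. The median log2 change over the 13 probes was 0.38 with WT-BPIFB4 and 0.53 with LAV-BPIFB4, against 0.00 and 0.01 over all tested probes. The estimate was positive for 11 and 12 of the 13 probes, against 10579 and 10633 of the 20914 probes in all. A call is a Benjamini-Hochberg adjusted p under 0.05 over all tested probes in limma's moderated test. By that rule 0.607% of all probes rose and 0.464% fell with WT-BPIFB4, and 3.64% rose and 4.08% fell with LAV-BPIFB4. Most host probes are bright, and among the 3369 tested probes with a mean log2 intensity above 10 the shares that rose were 1.01% and 6.71%. Both comparisons use the same 3 control arrays, so the same controls enter both sets of values.

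All 3 arrays of the BPIFB4 group lay above all 3 controls for 5 host probes with WT-BPIFB4 and for 8 with LAV-BPIFB4. Over all tested probes this held for 8.31% and 14.7%. A moderated F-test over the 3 groups called 4 host probes, both of SNHG15 and those of ZFAS1 and SNHG6, against 3.93% of all probes. With median scaling in place of quantile normalization, 0 host probes passed with WT-BPIFB4 and 4 with LAV-BPIFB4. That scaling moved the split of all called probes with LAV-BPIFB4 from 762 higher and 853 lower to 205 higher and 38 lower, and with WT-BPIFB4 from 127 higher and 97 lower to 38 higher and 14 lower. Leaving out WT-BPIFB4 replicate 1 raised the WT-BPIFB4 host calls to 6. Leaving out an empty vector or WT-BPIFB4 array otherwise gave 2 or 3.

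**Figure D1:**
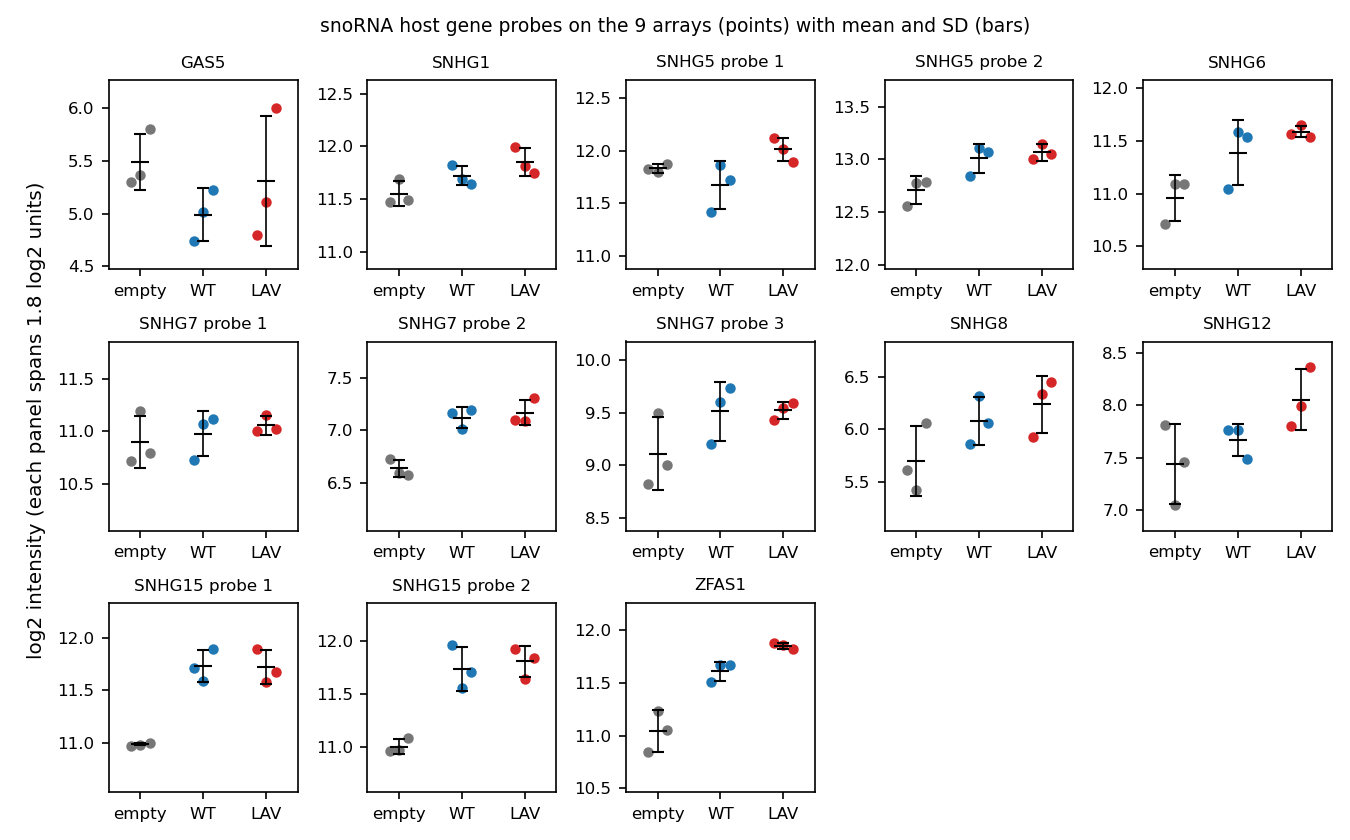
Log2 intensity of the 13 tested host probes on each array (points, replicates 1 to 3 from left to right) with the mean and SD of each group of 3 (bars). Each panel has its own axis with the same span of 1.8. The BPIFB4 arrays of both SNHG15 probes and of ZFAS1 all lie above the controls, whereas the GAS5 groups overlap for LAV-BPIFB4.

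SNHG15 rose in both BPIFB4 groups by both of its probes. It is a non-coding transcript on chromosome 7 that has been described as short-lived, and it hosts the H/ACA snoRNA SNORA9. The first SNHG15 probe (ILMN_1898124) read 10.97, 10.98 and 11.00 with the empty vector, 11.71, 11.59 and 11.89 with WT-BPIFB4, and 11.89, 11.58 and 11.67 with LAV-BPIFB4. The 3 controls lay close together, and the 6 BPIFB4 arrays lay above them with no order between WT-BPIFB4 and LAV-BPIFB4. SNHG15 rose 1.68-fold with WT-BPIFB4 (log2 change 0.74 ± 0.11 SE, adjusted p = 0.00115, limma, n = 3 per group) and 1.66-fold with LAV-BPIFB4 (0.73 ± 0.11, adjusted p = 0.000787, limma). The second SNHG15 probe (ILMN_3248773) read 10.96, 10.97 and 11.08 with the empty vector, 11.97, 11.56 and 11.71 with WT-BPIFB4, and 11.93, 11.64 and 11.84 with LAV-BPIFB4. All 6 BPIFB4 arrays again lay above the controls, with log2 changes of 0.74 ± 0.12 (adjusted p = 0.00211, limma) and 0.80 ± 0.12 (adjusted p = 0.000516, limma). Both SNHG15 probes passed for LAV-BPIFB4 under all 19 alternatives and for WT-BPIFB4 under 17 of them. One of these alternatives is a deposited value table. Its columns for LAV-BPIFB4 fit no array of the non-normalized table, so for LAV-BPIFB4 it changes the values as well as the processing. Which values are those of the LAV-BPIFB4 samples was not settled here, and the LAV-BPIFB4 results rest on the non-normalized table. The exceptions for WT-BPIFB4 were median scaling, with changes of 0.80 and 0.79 and adjusted p of 0.193 and 0.195 in limma, and a variance model without an intensity trend.

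ZFAS1, a host on chromosome 20 named for lying antisense to the start of ZNFX1, carries the C/D snoRNAs SNORD12, SNORD12B and SNORD12C. Its detected probe (ILMN_3188984) read 10.84, 11.23 and 11.05 with the empty vector, 11.51, 11.67 and 11.67 with WT-BPIFB4, and 11.88, 11.86 and 11.82 with LAV-BPIFB4. The 3 groups did not overlap, with the controls lowest and LAV-BPIFB4 highest. ZFAS1 rose 1.49-fold with WT-BPIFB4 (0.57 ± 0.11 SE, adjusted p = 0.0153, limma) and 1.75-fold with LAV-BPIFB4 (0.81 ± 0.11, adjusted p = 0.00027, limma). The gap between the BPIFB4 groups was 0.24 ± 0.11 and did not pass (adjusted p = 0.972, limma). For WT-BPIFB4 the ZFAS1 call held under 12 of 19 alternatives, and for LAV-BPIFB4 under all 19. The WT-BPIFB4 call was lost when empty vector replicate 1 (0.48) or 3 (0.58) or WT-BPIFB4 replicate 2 (0.54) or 3 (0.54) was left out. It was also lost with median scaling, with no intensity trend and with only the 2 groups compared (adjusted p = 0.571, 0.175 and 0.069, limma). A second ZFAS1 probe (ILMN_3233010) was detected on 0 of 9 arrays and gives no level.

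SNHG6 and SNHG5 passed for LAV-BPIFB4 and not for WT-BPIFB4, and for neither was the difference between the BPIFB4 groups past the threshold. SNHG6, on chromosome 8, hosts SNORD87. Its probe (ILMN_3248443) read 10.71, 11.09 and 11.09 with the empty vector, 11.04, 11.59 and 11.54 with WT-BPIFB4, and 11.57, 11.65 and 11.54 with LAV-BPIFB4. The LAV-BPIFB4 arrays lay close together and above the controls, while WT-BPIFB4 replicate 1 lay within the range of the controls. SNHG6 rose 1.54-fold with LAV-BPIFB4 (0.63 ± 0.14 SE, adjusted p = 0.0101, limma), and with WT-BPIFB4 the change was 0.43 ± 0.14 (adjusted p = 0.137, limma). The LAV-BPIFB4 call was lost without empty vector replicate 1 (0.51, adjusted p = 0.0568, limma). Without WT-BPIFB4 replicate 1, the change with WT-BPIFB4 was 0.61 and passed (adjusted p = 0.00638, limma).

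SNHG5, on chromosome 6, hosts the C/D snoRNAs SNORD50A and SNORD50B, and its 2 probes did not give the same picture. The probe ILMN_2200659 read 12.56, 12.78 and 12.79 with the empty vector, 12.84, 13.11 and 13.07 with WT-BPIFB4, and 13.00, 13.15 and 13.05 with LAV-BPIFB4. All 6 BPIFB4 arrays lay above the controls, by small amounts. By this probe SNHG5 rose 1.28-fold with LAV-BPIFB4 (0.35 ± 0.10 SE, adjusted p = 0.0408, limma), while the WT-BPIFB4 change was 0.30 ± 0.10 (adjusted p = 0.165, limma). That call held under 10 of 19 alternatives and was lost when empty vector replicate 1 (0.28) or 3 (0.39) or any LAV-BPIFB4 array, replicate 1 (0.39), 2 (0.31) or 3 (0.36), was left out. The probe ILMN_1653794 of SNHG5 read 11.82, 11.80 and 11.87 with the empty vector, 11.42, 11.86 and 11.72 with WT-BPIFB4, and 12.12, 12.01 and 11.89 with LAV-BPIFB4. It gave -0.16 ± 0.12 with WT-BPIFB4 (adjusted p = 0.532, limma) and 0.18 ± 0.12 with LAV-BPIFB4 (adjusted p = 0.378, limma), neither of which passed. Which SNHG5 transcripts each probe reads was not tested.

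**Figure D2:**
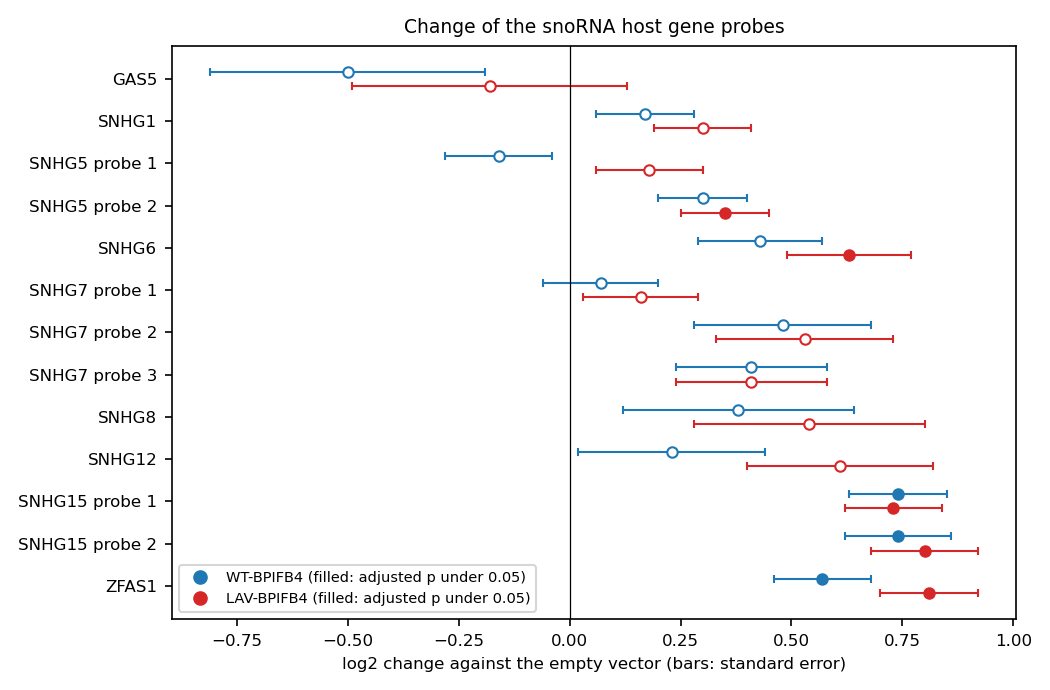
Log2 change of each tested host probe against the empty vector (x axis) with the standard error of the fit (bars), for WT-BPIFB4 and LAV-BPIFB4. Filled points passed at an adjusted p under 0.05. Both SNHG15 probes and ZFAS1 are filled in both comparisons, and SNHG6 and 1 SNHG5 probe only for LAV-BPIFB4.

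SNHG1, SNHG7, SNHG8 and SNHG12 passed in neither comparison in the main fit, and all of their 6 probes had positive estimates in both. SNHG1, on chromosome 11 and the host of SNORD22 and SNORD25 to SNORD31, read 11.47, 11.69 and 11.49 with the empty vector, 11.82, 11.69 and 11.64 with WT-BPIFB4, and 11.99, 11.81 and 11.75 with LAV-BPIFB4. The LAV-BPIFB4 arrays of SNHG1 lay above the controls and the WT-BPIFB4 arrays overlapped them, with changes of 0.30 ± 0.11 SE (adjusted p = 0.0969, limma) and 0.17 ± 0.11 (adjusted p = 0.486, limma). For LAV-BPIFB4, SNHG1 passed with array weights (0.30, adjusted p = 0.0447, limma) and in the deposited value table (0.57, adjusted p = 0.0255, limma). SNHG12, on chromosome 1 and the host of SNORA16A, SNORA44, SNORA61 and SNORD99, read 7.81, 7.05 and 7.46 with the empty vector, 7.76, 7.76 and 7.49 with WT-BPIFB4, and 7.80, 7.99 and 8.36 with LAV-BPIFB4. The controls of SNHG12 overlapped both BPIFB4 groups, while all LAV-BPIFB4 arrays lay above the WT-BPIFB4 arrays. Its changes were 0.61 ± 0.21 with LAV-BPIFB4 (adjusted p = 0.0753, limma) and 0.23 ± 0.21 with WT-BPIFB4 (adjusted p = 0.636, limma). Without empty vector replicate 1 the SNHG12 change with LAV-BPIFB4 was 0.80 and passed (adjusted p = 0.0479, limma). SNHG8, on chromosome 4 and the host of SNORA24, read 5.61, 5.42 and 6.06 with the empty vector, 5.86, 6.32 and 6.06 with WT-BPIFB4, and 5.93, 6.34 and 6.45 with LAV-BPIFB4. The SNHG8 groups overlapped too, with changes of 0.38 ± 0.26 and 0.54 ± 0.26 (adjusted p = 0.507 and 0.203, limma).

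SNHG7, on chromosome 9 and the host of SNORA17A and SNORA17B, had 3 tested probes. The dimmest SNHG7 probe (ILMN_3233205) read 6.73, 6.60 and 6.58 with the empty vector, 7.17, 7.01 and 7.19 with WT-BPIFB4, and 7.10, 7.09 and 7.31 with LAV-BPIFB4. All BPIFB4 arrays lay above the controls, yet the changes of 0.48 ± 0.20 and 0.53 ± 0.20 did not pass (adjusted p = 0.231 and 0.0987, limma). For LAV-BPIFB4 this probe passed with array weights and in the deposited value table (adjusted p = 0.0453 and 0.0284, limma). The probe ILMN_3233229 of SNHG7 read 8.82, 9.5 and 9.0 with the empty vector, 9.20, 9.60 and 9.73 with WT-BPIFB4, and 9.43, 9.54 and 9.59 with LAV-BPIFB4, and its change was 0.41 in both comparisons. That change passed for LAV-BPIFB4 without empty vector replicate 2 (0.61, adjusted p = 0.0301, limma) and for WT-BPIFB4 without WT-BPIFB4 replicate 1 (0.56, adjusted p = 0.0469, limma). On all 9 arrays it passed with array weights for LAV-BPIFB4 and WT-BPIFB4 (adjusted p = 0.0201 and 0.0377, limma). With the replicate number as a block it passed for LAV-BPIFB4 (adjusted p = 0.0496, limma). The probe ILMN_3227023 of SNHG7 read 10.72, 11.19 and 10.80 with the empty vector, 10.73, 11.07 and 11.12 with WT-BPIFB4, and 11.00, 11.16 and 11.02 with LAV-BPIFB4. Its groups overlapped, with changes of 0.07 and 0.16.

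GAS5 had negative estimates in both comparisons, neither of which passed, and the only SNHG3 probe was not detected. GAS5, on chromosome 1, took its name from its accumulation in growth-arrested cells and hosts 10 C/D snoRNAs, namely SNORD44, SNORD47 and SNORD74 to SNORD81. Its probe (ILMN_1754378) read 5.30, 5.37 and 5.80 with the empty vector, 4.74, 5.02 and 5.22 with WT-BPIFB4, and 4.80, 5.11 and 6.0 with LAV-BPIFB4. All 3 WT-BPIFB4 arrays lay below the controls, and the LAV-BPIFB4 arrays lay on both sides of them. The probe was detected on 3 control arrays and on 1 array of each BPIFB4 group, so it passed the detection filter through 5 arrays in all. The changes were -0.50 ± 0.31 SE with WT-BPIFB4 (adjusted p = 0.467, limma) and -0.18 ± 0.31 with LAV-BPIFB4 (adjusted p = 0.775, limma). Without LAV-BPIFB4 replicate 1 the latter was 0.07. The SNHG3 probe (ILMN_2179579) was detected on 0 of 9 arrays, with detection p-values of 0.0935 to 0.612.

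LAV-BPIFB4 was also set against WT-BPIFB4, the comparison that asks what the variant adds. In limma, 0 of the 13 host probes passed, and 0% of all 20914 probes did. At an unadjusted p under 0.05 there were 2 host probes, ILMN_1653794 of SNHG5 and ILMN_3188984 of ZFAS1, and 976 probes or 4.67% in all. These 2 had log2 changes of 0.34 ± 0.12 SE (adjusted p = 0.972, limma) and 0.24 ± 0.11, with every LAV-BPIFB4 array above every WT-BPIFB4 array. With SNHG12, that separation held for 3 of the 13 host probes, and for 1095 of all 20914 probes. The median change over the 13 host probes was 0.13. Median scaling moved the median of all probes in this comparison by 0.13 and that of the hosts to 0.28.

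The snoRNAs inside the hosts were then set beside them. The 10 hosts have 36 listed snoRNA names, of which 34 have a RefSeq entry, and all 34 lie within the span of their host. A probe was present for 30 of them, and 17 snoRNAs (18 probes) passed the detection filter. With WT-BPIFB4, 0 of the 18 probes passed in limma and 3 had an unadjusted p under 0.05, as did 15.6% of all probes, and the median change was 0.32. With LAV-BPIFB4, 5 rose, SNORD80, SNORA9, SNORD99, SNORA73A and SNORD12C, against 3.64% of all probes, and the median change was 0.62. SNORD12C passed the detection filter only through the BPIFB4 arrays, so its place among the 5 supports nothing. SNORA17B was likewise kept only through the BPIFB4 arrays, and both enter the medians. Against WT-BPIFB4, LAV-BPIFB4 gave 0 calls in limma, and 3 probes had an unadjusted p under 0.05, as did 4.67% of all probes. Leaving out LAV-BPIFB4 replicate 1 brought the 5 calls to 1, replicate 3 to 2, empty vector replicate 2 to 2 and empty vector replicate 3 to 3. Median scaling also gave 1. The labelling kit amplifies RNA from its poly(A) tail, which mature snoRNAs lack. Which form of each snoRNA the probes read (mature, precursor or host intron) was not tested.

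**Figure D3:**
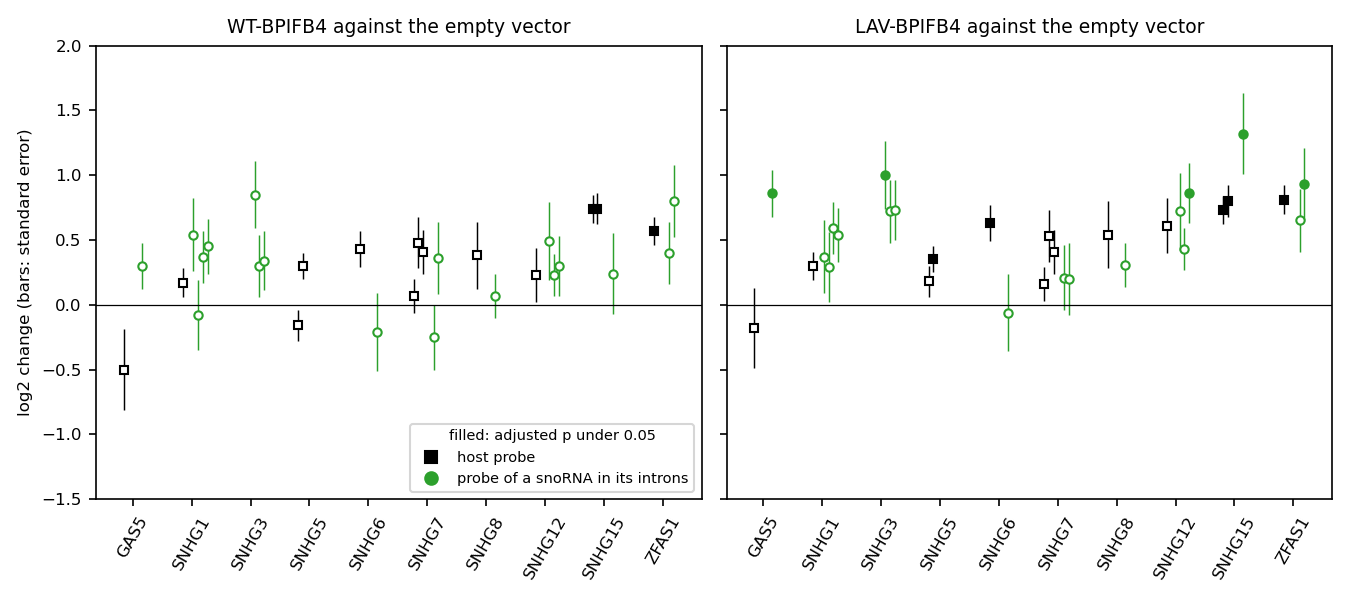
Log2 change against the empty vector (y axis, bars are standard errors) of each tested host probe (squares) and of each tested probe of a snoRNA in its introns (circles), by host, for WT-BPIFB4 on the left and LAV-BPIFB4 on the right. Filled symbols passed at an adjusted p under 0.05. With WT-BPIFB4 the filled symbols are the SNHG15 and ZFAS1 hosts, and none of the circles is filled.

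ZFAS1 and SNHG15 rose in both groups. Of their 3 tested snoRNAs, none passed with WT-BPIFB4, and SNORA9 passed with LAV-BPIFB4. SNORD12C also passed with LAV-BPIFB4, but it was kept only through the BPIFB4 arrays, so its call supports nothing. No difference between the BPIFB4 groups was past the threshold. SNORA9, from SNHG15, read 5.51, 6.30 and 5.93 with the empty vector, 6.01, 6.03 and 6.41 with WT-BPIFB4, and 8.14, 6.70 and 6.85 with LAV-BPIFB4. The WT-BPIFB4 arrays of SNORA9 overlapped the controls, and LAV-BPIFB4 replicate 1 stood above the other 2. SNORA9 rose 2.49-fold with LAV-BPIFB4 (1.32 ± 0.31 SE, adjusted p = 0.0142, limma), while the WT-BPIFB4 change was 0.24 ± 0.31 (adjusted p = 0.765, limma). The SNORA9 difference between the BPIFB4 groups was 1.08 ± 0.31 and did not pass (adjusted p = 0.972, limma). Without LAV-BPIFB4 replicate 1 the SNORA9 change was 0.86 (adjusted p = 0.0987, limma), and without empty vector replicate 1 it was 1.11 (adjusted p = 0.0676, limma). In the deposited value table the SNORA9 change was 0.42 (adjusted p = 0.0646, limma). The level of SNORA9 minus that of SNHG15 (ILMN_3248773) changed by 0.52 with LAV-BPIFB4 and by -0.50 with WT-BPIFB4. Neither difference passed (p = 0.4 and 0.2, exact two-sided permutation over the arrays). With 3 arrays a group that p cannot go below 0.1, so it cannot decide whether host and snoRNA part.

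SNORD12C, from ZFAS1, was detected on no control array and on all 6 BPIFB4 arrays. It read 5.02, 4.83 and 5.11 with the empty vector, 5.87, 6.09 and 5.39 with WT-BPIFB4, and 6.15, 5.40 and 6.18 with LAV-BPIFB4. All BPIFB4 arrays lay above the controls. It was kept for testing only because of those 6 arrays. The controls have only a bound there, taken on each control array as the lowest level among its detected probes, or the probe's own if higher. Against it the group mean of SNORD12C was at least 1.66-fold higher with LAV-BPIFB4 and at least 1.52-fold higher with WT-BPIFB4. The limma changes do not use this bound. They were 0.93 ± 0.28 with LAV-BPIFB4 (adjusted p = 0.0491, limma) and 0.80 ± 0.28 with WT-BPIFB4 (adjusted p = 0.172, limma), of which the latter did not pass. The SNORD12C difference between the BPIFB4 groups was 0.13 ± 0.28 and did not pass (adjusted p = 0.987, limma). The SNORD12C call held under 6 of 18 alternatives. It was lost when any empty vector array, WT-BPIFB4 replicate 2 or LAV-BPIFB4 replicate 1 or 3 was left out. SNORD12, from the same host, had changes of 0.40 ± 0.24 and 0.65 ± 0.24 (adjusted p = 0.432 and 0.0947, limma).

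GAS5 and SNHG6 each have 1 tested snoRNA. SNORD80, the only one of the GAS5 snoRNAs to pass the filter, read 7.48, 7.39 and 7.63 with the empty vector, 7.86, 7.86 and 7.69 with WT-BPIFB4, and 8.51, 8.07 and 8.50 with LAV-BPIFB4. The 3 groups of SNORD80 did not overlap, and it rose 1.81-fold with LAV-BPIFB4 (0.86 ± 0.18 SE, adjusted p = 0.00635, limma). Its call held under 18 of 19 alternatives and was lost with median scaling (0.93, adjusted p = 0.108, limma). The SNORD80 change with WT-BPIFB4 was 0.30 ± 0.18 (adjusted p = 0.426, limma). Its difference between the BPIFB4 groups was 0.56 ± 0.18 (adjusted p = 0.972, limma), and neither passed. GAS5 was detected on 1 of 3 arrays in each BPIFB4 group, so no difference between SNORD80 and its host is given. SNORD87, from SNHG6, read 5.5, 5.74 and 5.15 with the empty vector, 5.14, 5.67 and 4.95 with WT-BPIFB4, and 5.17, 5.16 and 5.90 with LAV-BPIFB4. Its groups overlapped, and its change with LAV-BPIFB4 was -0.06 ± 0.30 (adjusted p = 0.931, limma). SNORD87 was detected on 4 arrays in all, 1 of them with LAV-BPIFB4, so no difference from SNHG6 is given.

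The only SNHG3 probe was below detection while its snoRNAs SNORA73A and SNORA73B, H/ACA RNAs with a role in pre-ribosomal RNA cleavage, were detected on all 9 arrays. With 1 host probe, a low SNHG3 level cannot be told from a probe that reads poorly. SNORA73A read 6.58, 6.09 and 6.20 with the empty vector, 7.05, 7.10 and 7.27 with WT-BPIFB4, and 8.03, 6.79 and 7.05 with LAV-BPIFB4. All BPIFB4 arrays of SNORA73A lay above the controls, and LAV-BPIFB4 replicate 1 was again the highest. SNORA73A rose 2.00-fold with LAV-BPIFB4 (1.00 ± 0.26 SE, adjusted p = 0.0251, limma), and the WT-BPIFB4 change was 0.85 ± 0.26 (adjusted p = 0.12, limma). Without LAV-BPIFB4 replicate 1 the SNORA73A change was 0.63 (adjusted p = 0.161, limma), and the call was also lost without LAV-BPIFB4 replicate 3 (1.12) and without empty vector replicate 2 (0.90) or 3 (0.96). Both SNORA73B probes gave changes with LAV-BPIFB4 that did not pass, 0.72 ± 0.24 and 0.73 ± 0.23 (adjusted p = 0.0666 and 0.0537, limma). SNORA73A and SNORA73B are close copies, and whether each probe reads both was not tested. For SNHG5 the host was detected on every array, and none of its listed snoRNAs passed the filter. Whether the probes of those snoRNAs read poorly was not tested.

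In the main fit SNHG12 and SNHG1 did not pass, and among their snoRNAs only SNORD99 did, which is not a test of host against snoRNA. SNORD99, from SNHG12, read 6.64, 5.94 and 6.64 with the empty vector, 6.59, 6.90 and 6.62 with WT-BPIFB4, and 7.32, 7.27 and 7.22 with LAV-BPIFB4. The LAV-BPIFB4 arrays of SNORD99 lay above all the others, and it rose 1.82-fold (0.86 ± 0.23 SE, adjusted p = 0.0239, limma). The SNORD99 change with WT-BPIFB4 was 0.30 ± 0.23 (adjusted p = 0.566, limma). Its difference between the BPIFB4 groups was 0.57 ± 0.23 (adjusted p = 0.972, limma), and neither passed. The SNORD99 call was lost when empty vector replicate 2 (0.63) or any LAV-BPIFB4 array, replicate 1 (0.84), 2 (0.86) or 3 (0.88), was left out. In the deposited value table the SNORD99 change was 0.22. With LAV-BPIFB4, SNORD99 minus SNHG12 changed by 0.25 (p = 0.3, exact permutation over the arrays, smallest possible 0.1). SNORA16A and SNORA61, also from SNHG12, had changes of 0.72 and 0.43 with LAV-BPIFB4 (adjusted p = 0.143 and 0.0991, limma). The 4 tested SNHG1 snoRNAs, SNORD22, SNORD25, SNORD30 and SNORD31, had changes of 0.37, 0.29, 0.59 and 0.54 with LAV-BPIFB4, none of which passed. SNORA24 of SNHG8 and SNORA17A and SNORA17B of SNHG7 had changes of 0.31, 0.21 and 0.20, which did not pass either. SNORA17B was detected on 0 control, 2 WT-BPIFB4 and 1 LAV-BPIFB4 arrays. Against the bound used for SNORD12C, its LAV-BPIFB4 mean was 0.973-fold, so no rise is shown.

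**Figure D4:**
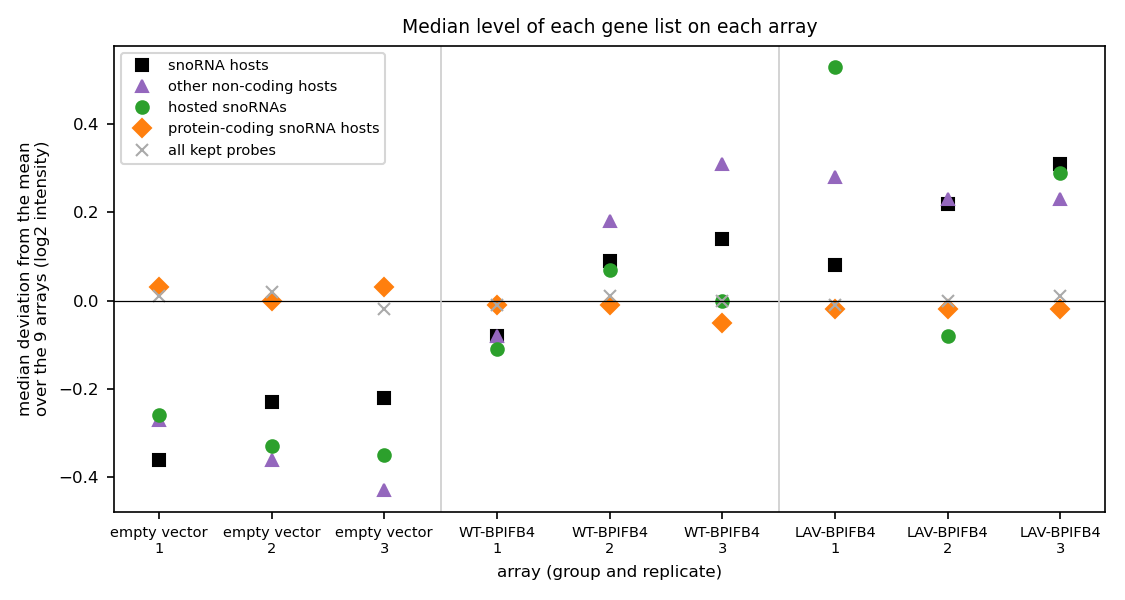
Median deviation of each gene list from its mean over the 9 arrays (y axis, log2 intensity), 1 point per list and array, with 1 probe per gene for the lists. The snoRNA hosts run from -0.36 to -0.22 on the controls and from 0.08 to 0.31 on LAV-BPIFB4, while the protein-coding snoRNA hosts stay between -0.05 and 0.03.

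By array, the median deviation of the hosts from their mean over the 9 arrays was -0.36, -0.23 and -0.22 with the empty vector, -0.08, 0.09 and 0.14 with WT-BPIFB4, and 0.08, 0.22 and 0.31 with LAV-BPIFB4. WT-BPIFB4 replicate 1, the array nearest to the controls on the first principal component, was also the lowest of its group here. The hosted snoRNAs took another order within LAV-BPIFB4, at 0.53, -0.08 and 0.29 for replicates 1, 2 and 3. LAV-BPIFB4 replicate 1 was therefore the highest array for the snoRNAs and the lowest of its group for their hosts. Over all tested probes the medians lay between -0.02 and 0.02.

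Other non-coding snoRNA hosts on the array rose as well. Of 8 measured, 3 rose with WT-BPIFB4 (SNHG17, SNHG32 and SNHG11) and 6 with LAV-BPIFB4 (the same 3 and SNHG9, EPB41L4A-AS1 and DANCR), and none fell, against 0.607% and 3.64% of all probes that rose. SNHG17 had a change of 0.96 ± 0.12 SE with WT-BPIFB4 (1.94-fold, adjusted p = 5.65e-05, limma) and of 0.94 ± 0.12 with LAV-BPIFB4 (1.91-fold, adjusted p = 4.55e-05, limma). SNHG9 rose 2.18-fold with LAV-BPIFB4 (1.13 ± 0.18, adjusted p = 0.00113, limma), and EPB41L4A-AS1 rose 1.49-fold (0.57 ± 0.12, adjusted p = 0.00588, limma). SNHG32 had changes of 0.45 and 0.44, SNHG11 of 0.93 and 0.81. SNHG4 and MEG8 passed in neither comparison. Leaving out any one LAV-BPIFB4 array lowered the LAV-BPIFB4 count from 6 to 3, and leaving out any empty vector or LAV-BPIFB4 array, or WT-BPIFB4 replicate 3, lowered the WT-BPIFB4 count from 3 to 1. Median scaling gave 0 for WT-BPIFB4 and 2 for LAV-BPIFB4, and a model with no intensity trend gave 1 for each.

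Protein-coding genes that carry snoRNAs in their introns, mostly genes of ribosomal proteins and translation factors, gave no call upward in the main fit. Of 39 listed, 34 were measured, and 0 rose in either comparison in limma, with 5 and 8 genes at an unadjusted p under 0.05 in either direction, against 15.6% and 23.9% of all probes. With LAV-BPIFB4, 3 fell, against 4.08% of all probes: TCP1, a subunit of the cytosolic chaperonin (log2 change -0.61 ± 0.14 SE, adjusted p = 0.0112, limma), CNOT1, the scaffold of a deadenylase complex (-0.42 ± 0.12, adjusted p = 0.0332, limma), and NCL, the nucleolar protein nucleolin (-0.36 ± 0.10, adjusted p = 0.0349, limma). All 3 calls were lost with median scaling, where the changes were -0.33, -0.11 and 0.00. All were lost too when LAV-BPIFB4 replicate 1 was left out (-0.56, -0.40 and -0.41). CNOT1 and NCL also lost theirs without LAV-BPIFB4 replicate 2 or 3 or empty vector replicate 1, TCP1 and NCL without empty vector replicate 3, and CNOT1 without empty vector replicate 2. The list's median change was -0.01 with WT-BPIFB4 and -0.07 with LAV-BPIFB4. Upward calls did appear for LAV-BPIFB4 under some alternatives, at most 2, with array weights, where 4 fell. With an array left out there was at most 1 upward. For WT-BPIFB4 the alternatives gave 0 upward and at most 3 downward.

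Among the snoRNAs placed by RefSeq inside those protein-coding hosts, many rose. This set was formed after the host values were seen. It held 52 tested snoRNAs in 24 hosts, of which 13 rose with WT-BPIFB4 and 25 with LAV-BPIFB4, against 0.607% and 3.64% of all probes. The medians were 0.54 and 0.72, and none fell. SNORD15B, a C/D snoRNA in RPS3, had a change of 1.79 with WT-BPIFB4 and rose 5.45-fold with LAV-BPIFB4 (2.45 ± 0.21 SE, adjusted p = 2.98e-07, limma), while RPS3 itself had changes of 0.20 and 0.25. SNORD83B, in RPL3, rose 3.60-fold with LAV-BPIFB4 (1.85 ± 0.15, adjusted p = 8.27e-08, limma), while RPL3 had a change of 0.08. SNORD139 in the same gene and SNORD4A in RPL23A rose too, by 1.30 and 1.02 on the log2 scale. Leaving out LAV-BPIFB4 replicate 1 lowered the LAV-BPIFB4 count from 25 to 12, and leaving out WT-BPIFB4 replicate 2 or 3 lowered the WT-BPIFB4 count from 13 to 6. Without empty vector replicate 3 the WT-BPIFB4 count was 7, and without a LAV-BPIFB4 array it was 7 or 8. Median scaling gave 2 for WT-BPIFB4 and 14 for LAV-BPIFB4.

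Few of the snoRNAs inside the other non-coding hosts passed. Of 9 tested in 6 of these hosts, 0 rose with WT-BPIFB4 in limma. At an unadjusted p under 0.05 in either direction there was 1, against 15.6% of all probes. With LAV-BPIFB4, 1 rose, against 3.64% of all probes. This was SNORA13 in EPB41L4A-AS1 (1.01 ± 0.25 SE, adjusted p = 0.02, limma). Its call was lost when empty vector replicate 3 or LAV-BPIFB4 replicate 1 or 3 was left out. SNORA71C, inside SNHG17, fell in both comparisons while its host rose. Its log2 change was -1.45 with WT-BPIFB4 (adjusted p = 0.00329, limma) and -1.20 ± 0.25 with LAV-BPIFB4 (adjusted p = 0.00641, limma), and each call held under 18 of 19 alternatives. SNORA71A and SNORA71D, in the same host, had changes of 0.31 and 0.11 with WT-BPIFB4 and of 0.03 and 0.27 with LAV-BPIFB4, and none passed. The SNORA71 genes are close copies of each other, so how the probes divide them was not tested.

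**Figure D5:**
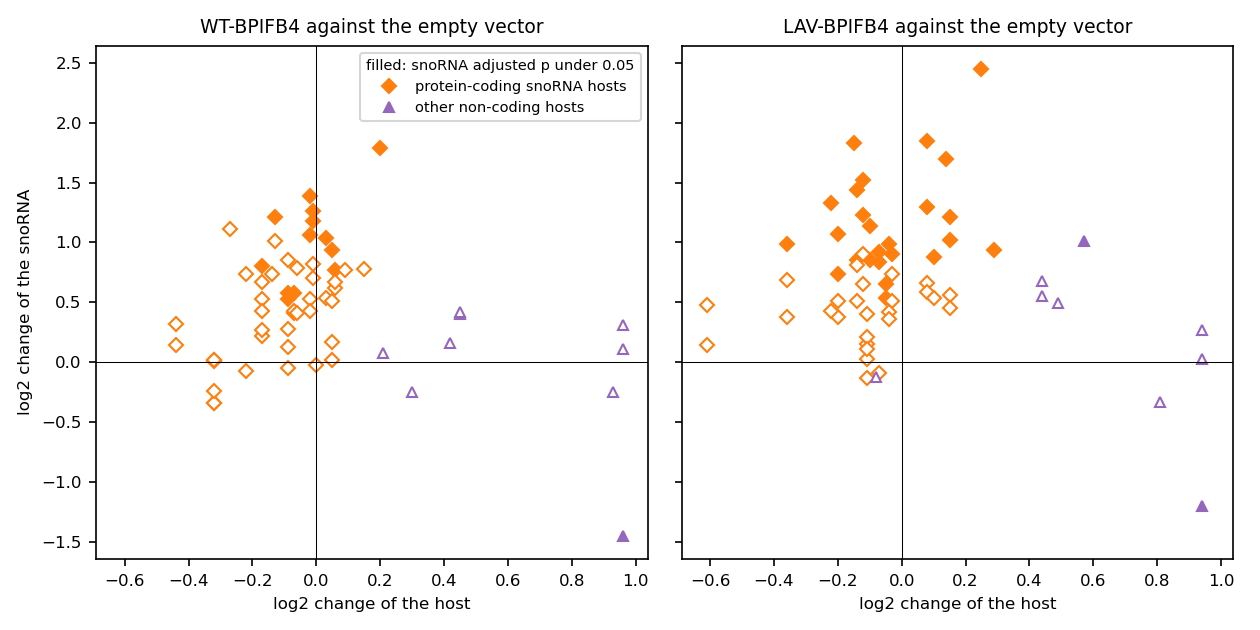
Log2 change of each tested snoRNA (y axis) against that of the gene that contains it (x axis), for protein-coding hosts (diamonds) and for non-coding hosts other than the 10 members (triangles), with WT-BPIFB4 on the left and LAV-BPIFB4 on the right. Filled symbols are snoRNAs that passed at an adjusted p under 0.05. The filled diamonds lie above 0, and with LAV-BPIFB4 their hosts run from -0.36 to 0.29. The filled triangle at the lower right of each panel is SNORA71C in SNHG17.

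The whole snoRNA classes and the decay pathway were read beside the hosts. Outside the 10 hosts, 12 of 65 C/D box genes rose with WT-BPIFB4 and 25 with LAV-BPIFB4. Of 85 H/ACA and scaRNA genes, 6 rose and 1 fell with WT-BPIFB4, and 37 rose and 1 fell with LAV-BPIFB4. Over all probes, 0.607% rose and 0.464% fell with WT-BPIFB4, and 3.64% rose and 4.08% fell with LAV-BPIFB4. The medians with LAV-BPIFB4 were 0.60 and 0.70, and the snoRNAs inside the 10 hosts, at 1 probe per gene, had 0.59. Of 19 listed nonsense-mediated decay factors, 15 were measured. With WT-BPIFB4, 0 passed in limma and 5 had an unadjusted p under 0.05, against 15.6% of all probes. With LAV-BPIFB4, 2 fell, against 4.08% of all probes: SMG1, the kinase that phosphorylates UPF1 (-0.72 ± 0.16 SE, adjusted p = 0.0105, limma), and UPF2, which links UPF1 to the exon junction complex (-0.52 ± 0.14, adjusted p = 0.0239, limma). Both calls were lost with median scaling (-0.60 and -0.28) and without LAV-BPIFB4 replicate 1 (-0.57 and -0.56) or 3 (-0.71 and -0.47), and that of UPF2 also without LAV-BPIFB4 replicate 2 (-0.54) or empty vector replicate 2 (-0.40). The median change of the 15 factors was 0.10 with WT-BPIFB4 and 0.06 with LAV-BPIFB4, with 10 and 9 positive estimates. With LAV-BPIFB4 the changes ran from -0.72 to 0.75. The part of these factors in the host levels was not tested.

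The tested genes next to or overlapping the hosts were WDR74, SLC3A2, RCC1, PHACTR4, MCMDC2, TCF24, AGPAT2, PRSS12, TRNAU1AP and ZNFX1. Of these, 1 passed, with LAV-BPIFB4, where 3.64% of all probes rose. Among so few genes, 1 call cannot be set apart from that share. MCMDC2, whose annotated span overlaps that of SNHG6, rose with LAV-BPIFB4 (0.67, adjusted p = 0.0259, limma). This call was lost when empty vector replicate 2 (0.51) or 3 (0.65) or LAV-BPIFB4 replicate 1 (0.46) or 3 (0.76) was left out. ZNFX1, beside ZFAS1, had changes of -0.12 and 0.21, and SLC3A2, beside SNHG1, had changes of 0.42 and 0.31 by the probe ILMN_1726456. SNHG15 had no tested neighbour.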

How the data were processed

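Per the file headers, the deposited non-normalized table holds the intensity of each probe on each of 9 arrays, with its detection p-value. The submitters' processing notes name BeadStudio, with no version. A deposited value table, with another intensity for each sample, served as an alternative. Its empty vector and WT-BPIFB4 columns were a linear function of their own array, but its LAV-BPIFB4 columns matched none of the 9 arrays. How that table was normalized is not given in the sources used here.

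Intensities were background-corrected from the detection p-values, offset by 16, quantile-normalized and log2-transformed by the neqc function of limma 3.58.1 (R 4.3.3). Kept probes were detected, at a p-value under 0.05, on 3 or more of 9 arrays. A model with 3 group means was fitted with lmFit and eBayes with an intensity trend, two-sided, adjusted by Benjamini-Hochberg over all kept probes. Changes are log2 ± standard error. The number of arrays limits the precision. Symbols were read from the gene table of the array and from RefSeq (GRCh38.p14), where 30105 of 47310 probes had 1 symbol, 8 several and 17197 none, and both symbol sources gave the same 15 host probes. Lists other than the hosts use 1 probe per gene, the one with the highest mean. The snoRNAs inside other hosts were placed by containment in the host's span. Named were all hosts, their tested snoRNAs, up to 4 called members of each other list by smallest p, and called neighbours. The neighbours that were not called, RPS3, RPL3, RPL23A, SNORA13, SNORA71A, SNORA71C, SNORA71D, SNHG4, MEG8 and the other called non-coding hosts were named after their values were seen. Blood, liver and fibroblast markers were also read: CD14, ALB, COL1A1 and COL3A1 were detected among 4, 3 and 4 on the array. The members and lists were chosen with earlier results of these data known. The pipeline was tested on simulated data.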

Additional observations from a re-analysis of the deposited data

How the results depend on the processing

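The alternatives were median scaling, no background correction, an offset of 50, the deposited value table, no detection filter, a detection p-value under 0.01 on all 9 arrays, no intensity trend, array weights, the replicate number as a block, only the 2 groups compared, and each array left out in turn. Choosing members by the current instead of the platform symbol gave the same 15 probes. The median change of the hosts was 0.38 with WT-BPIFB4 and ran from 0.25 to 0.46 over the alternatives. With LAV-BPIFB4 it was 0.53 and ran from 0.35 to 0.61. Each shift was below 0.193, the SD within groups of the median host probe level of each array. That SD is a spread of levels and not of the median change, so it does not show that the change is stable. For WT-BPIFB4, 3 host probes passed, against 0 with median scaling, 0 with no intensity trend, 6 with array weights and 2 to 6 with an array left out. For LAV-BPIFB4, 5 passed, against 3 with no intensity trend, 9 with array weights and 4 to 6 with an array left out. The F-test over the 3 groups called 4, against 0 with no intensity trend and 3 to 5 with an array left out (alternatives for this test, and for the counts of other lists, were added after the data were seen). For the snoRNAs inside the hosts with LAV-BPIFB4, 5 passed, against 1 with median scaling, 1 with no intensity trend, 10 with array weights and 1 to 7 with an array left out. Over all probes, calls numbered 224 for WT-BPIFB4 (31 to 1613 over the alternatives) and 1615 for LAV-BPIFB4 (210 to 2962). The cause of these shifts was not tested.

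Same-numbered replicates of different groups had correlated deviations of 0.00 to 0.22, not all above 0.1. The main fit did not pair the samples. Without values for differently numbered replicates, whether the numbers pair the samples cannot be told. With the replicate block, 4 and 7 host probes and 1 and 7 hosted snoRNA probes passed for WT-BPIFB4 and LAV-BPIFB4. Of all 20914 probes, the block called 393 higher and 436 lower for WT-BPIFB4, and 1306 higher and 1434 lower for LAV-BPIFB4.

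Signs turned 6 times for WT-BPIFB4 and 6 for LAV-BPIFB4 against the empty vector and 30 times for LAV-BPIFB4 against WT-BPIFB4, and in none of these did the turned value pass. For WT-BPIFB4 against the empty vector, SNORA24 was -0.03 with median scaling and SNHG5 (ILMN_1653794) 0.07 in the value table, and with an array left out SNHG7 (ILMN_3227023) ran from -0.02 to 0.21, SNORA24 from -0.03 to 0.14 and SNORD25 from -0.23 to 0.02. For LAV-BPIFB4 against the empty vector, SNORA17A was -0.06 in the value table and SNORD87 0.09 with array weights, and with an array left out GAS5 ran from -0.52 to 0.07 and SNORD87 from -0.30 to 0.08. For LAV-BPIFB4 against WT-BPIFB4, SNHG15 (ILMN_1898124) was 0.18 with median scaling, 0.18 in the value table and 0.02 with array weights, SNHG5 (ILMN_2200659) -0.07 and SNORA16A -0.04 in the value table, SNHG7 (ILMN_3233229) -0.08 in the value table and -0.04 with array weights, and SNORD22 0.13 with array weights. With an array left out in that comparison, GAS5 ran from -0.03 to 0.57, SNHG15 from -0.10 to 0.06 (ILMN_1898124) and from -0.03 to 0.18 (ILMN_3248773), SNHG5 (ILMN_2200659) from -0.03 to 0.11, SNHG7 from -0.03 to 0.16 (ILMN_3227023), from -0.02 to 0.09 (ILMN_3233205) and from -0.15 to 0.12 (ILMN_3233229), SNORA16A from -0.04 to 0.58, SNORA73A from -0.22 to 0.40, SNORD12C from -0.07 to 0.38, SNORD22 from -0.44 to 0.17, SNORD31 from -0.14 to 0.28 and SNORD87 from -0.09 to 0.36.

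GAS5, SNORD87, SNORA17B and SNORD12C were near background on some arrays, where the offset sets the size of a change.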
